A study of Mus musculus with 6 samples.

Results

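The kinesins are the motor proteins of the Kif gene family, and their transcripts were examined in cultured mouse cells subjected to a model of ischemia and reperfusion with or without the plant compound phillyrin. Members were taken by symbol: every gene of the deposited table named Kif or Kifc followed by a number and an optional lower-case letter. The rule found 43 of the 21959 genes listed. By their known roles 14 were placed in a mitotic class, 16 in a transport class and 13 in a class of other kinesins, whose members act at cilia, centrioles or microtubule ends, serve both in dividing and in resting cells, or are little studied. Of the 43, 33 had enough counts to be tested (13 mitotic, 13 transport and 7 other).

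Kinesins hydrolyse ATP in a conserved motor domain and most of them walk along microtubules. In dividing cells one set slides and crosslinks spindle microtubules, removes tubulin from their ends, carries chromosome arms and builds the midzone at which the cell is cut apart. Another set hauls organelles, vesicles, mRNAs and the cargo of cilia, and works at all stages of the cell cycle. Many mitotic kinesin transcripts are made late in the cell cycle and are scarce in resting cells, whereas in muscle kinesin-1 is known for placing nuclei and mitochondria along the fibre.

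The phillyrin group comprised 3 libraries labelled OGD/R + Phillyrin, and the group it was set against 3 libraries labelled OGD/R. All were labelled as wild-type HL-1, a line derived from mouse atrial cardiomyocytes. OGD/R stands for oxygen-glucose deprivation and reoxygenation, which per the labels lasted 4 h in glucose-free medium under nitrogen and then 24 h in full medium with oxygen. Phillyrin, a lignan glucoside of Forsythia, was given at 50 µg/mL for 8 h beforehand and 16 h together with OGD/R. All 6 libraries were exposed to OGD/R, and no library of untreated cells was analysed here. The labels name no vehicle for the OGD/R cells, so phillyrin cannot be told apart from its solvent. Whether the 3 libraries within each group were grown as separate cultures is not stated, and the p-values given here reflect library-to-library spread that could be technical only.

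Library totals were 14761317 to 22123648 counts in the phillyrin group and 18179405 to 20433200 in OGD/R. Kinesins took 0.305% to 0.315% of the counts with phillyrin and 0.276% to 0.280% in OGD/R, and mitochondrially encoded genes 3.49% to 4.27% with phillyrin and 3.18% to 3.30% in OGD/R. Among 12 atrial muscle markers 10 had too few counts to be tested, and Myh6, Actn2, Mybpc3 and Mybphl were at 0 in all 6 libraries. Most of these 12 markers thus do not bear out the label, which is kept only as a name. Their summed level was 147 to 165 CPM (counts scaled to a common library size, with TMM factors) with phillyrin and 116 to 120.2 CPM in OGD/R, nearly all of it Tnnt2, which rose. The 10 skeletal myoblast markers, of which Myog alone was not tested, summed to 1230.4 to 1288 CPM with phillyrin and 1305 to 1330.1 CPM in OGD/R, with 1 called higher, Myod1, and 5 called lower (over all genes tested, 16.0% were called higher and 15.6% lower). Of 7 fibroblast markers, with Lum at 0, 3 of 5 tested were called lower and the sums were 1797 to 1950.2 CPM with phillyrin and 2281 to 2322 CPM in OGD/R. The 7 endothelial and leukocyte markers, with Kdr and Adgre1 at 0, summed to 3.29 to 5.44 CPM with phillyrin and 3.04 to 3.35 CPM in OGD/R, with 0 of 2 tested called. The part of these differences in the results below was not tested.

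Mitotic kinesins rose with phillyrin, whereas transport kinesins went both ways at about the rate of all genes. Of the 13 mitotic kinesins tested, 12 were called higher and 0 lower, with a median log2 fold change of 0.38. Of the 13 transport kinesins tested, 2 were called higher, 2 lower and 9 neither, with a median of -0.03 (1 higher and 4 lower on library totals alone, 1 higher without OGD/R replicate 3). Of the 7 others, 3 were called higher and 1 lower, with a median of 0.11 (1 higher on library totals alone or without either of OGD/R replicates 2 and 3). Over all 11658 genes tested 16.0% were called higher and 15.6% lower, 31.7% in either direction (edgeR quasi-likelihood test, adjusted over all genes at a threshold of 0.05), with a median of -0.01. These are 1871 and 1823 genes, and without TMM factors, on library totals alone, 1313 and 2455. The mitotic share of 92.3% called higher stood far from that background, and the transport shares of 15.4% in each direction were at it. All 13 mitotic kinesins had every phillyrin library above every OGD/R library, which held for 3 of the 13 transport kinesins and for 21.5% of all genes tested. The reverse, every phillyrin library below, held for 4 transport kinesins and 21.6% of all genes. An exact permutation test of 3 libraries against 3 cannot give a two-sided p under 0.1 for a single gene, and each call therefore borrows its error estimate from other genes.

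**Figure D1:**
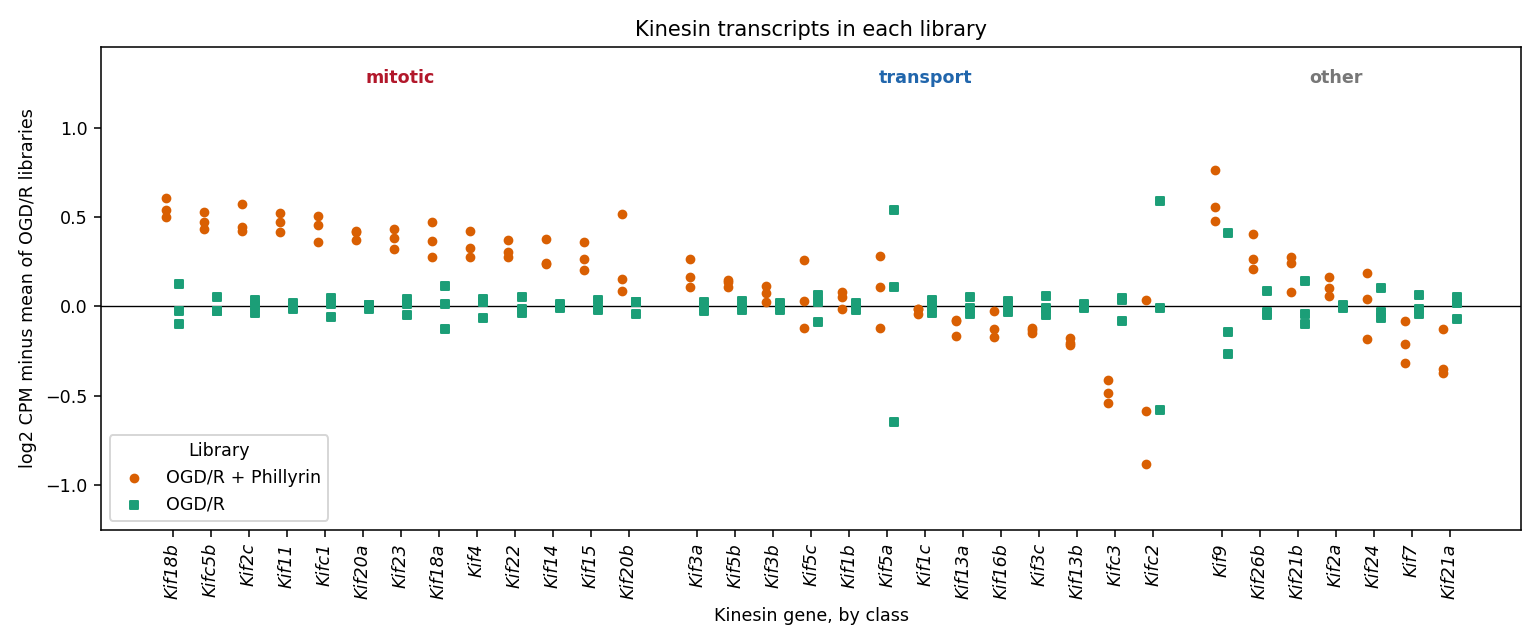
Level of each of the 33 tested kinesins in every library, as log2 CPM minus the mean of the OGD/R libraries for that gene (vertical axis, log2 units), with phillyrin libraries as circles and OGD/R libraries as squares. In the mitotic class at left every circle lies above every square of its gene, whereas in the transport and other classes circles lie on either side of 0.

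The summed level of the mitotic class differed between the groups by more than the sums of the transport and other classes. Summed over the class, mitotic kinesins stood at 1528, 1471 and 1519 CPM in the phillyrin libraries, against 1144, 1139 and 1143 CPM in the OGD/R libraries. Transport kinesins stood at 1321, 1298 and 1344 CPM with phillyrin and 1284, 1265 and 1288 CPM in OGD/R, and the other kinesins at 332, 317 and 320.4 CPM with phillyrin and 328, 313 and 310.2 CPM in OGD/R. In CPM the mitotic sums did not overlap between the groups, the transport sums did not overlap either but lay close together, and those of the other kinesins overlapped. Levels were also summed as deposited FPKM (fragments over gene length and library total). The ratio of the mitotic to the transport sum was 1.58 ± 0.02 with phillyrin and 1.23 ± 0.01 in OGD/R (SD, n = 3 each). The size of this ratio depends on the gene lengths used. In FPKM the transport sums overlapped, at 168.0, 164.9 and 168.6 with phillyrin and 167.0, 164.0 and 166.0 in OGD/R. These sums describe the classes and were not tested. In bulk RNA, more cells of a kind and more transcript in each such cell cannot be told apart.

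**Figure D2:**
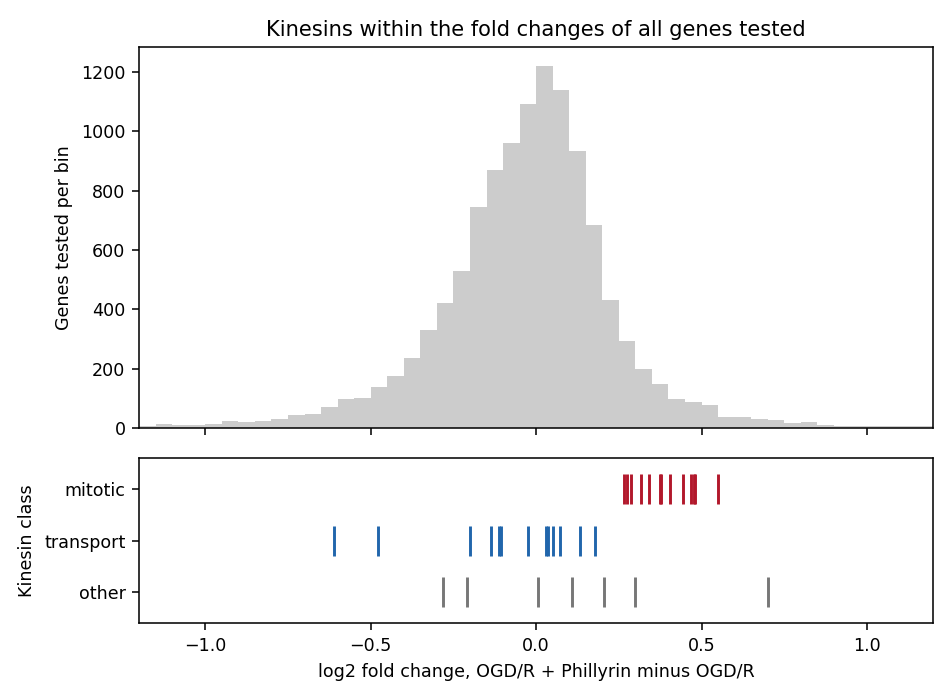
Log2 fold changes (OGD/R + Phillyrin minus OGD/R, horizontal axis) of the genes tested within ±1.2, as a histogram in bins of 0.05 above and as 1 tick per kinesin below, by class. The mitotic ticks lie between 0.26 and 0.55, on the right flank of the distribution, and the transport ticks between -0.61 and 0.18.

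Among kinesins that assemble the spindle, Kif11 had the highest FPKM. Kif11 (ENSMUSG00000012443, GRCm39 chromosome 19, 37364851 to 37410307), the kinesin-5 whose tetramers push spindle poles apart, stood at 285, 275 and 296 CPM in the phillyrin libraries, against 205, 209 and 204 CPM in the OGD/R libraries, and rose by 38.4% (log2 fold change 0.47, SE 0.04, edgeR adjusted p = 1.27e-12). Every phillyrin library lay well above every OGD/R library. Kif15, a kinesin-12 that can hold the spindle open when Kif11 is inhibited, stood at 78.3, 75.1 and 83.7 CPM with phillyrin and 64.4, 64.1 and 66.8 CPM in OGD/R (log2 fold change 0.28, SE 0.05, edgeR adjusted p = 0.000121). It had the smallest rise among the 12 called. Kifc1, a minus-end-directed kinesin-14 that focuses spindle poles, stood at 77.5, 80.3 and 72.5 CPM, against 58.3, 56.9 and 54.2 CPM in OGD/R (log2 fold change 0.45, SE 0.06, edgeR adjusted p = 6.04e-08). Kifc5b, a kinesin-14 gene also on chromosome 17, stood at 44.9, 48.0 and 46.1 CPM with phillyrin and 34.5, 32.6 and 32.6 CPM in OGD/R (log2 fold change 0.48, SE 0.07, edgeR adjusted p = 2.66e-07). Of the stretches of 100 bases in the Kifc1 transcript 23.7% also occur in Kifc5b, so how reads were divided between them is uncertain. Apart from this pair, Kif28, which had no count, was the only kinesin of the 43 to share such a stretch with another gene.

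Kinesins that shorten microtubules or act at their plus ends included the largest rise among the kinesins called. Kif18b (ENSMUSG00000051378, chromosome 11, 102796355 to 102815950), a kinesin-8 that keeps astral microtubules short, stood at 98.3, 106 and 101 CPM with phillyrin and 75.8, 64.7 and 68.2 CPM in OGD/R, a rise of 46.4% (log2 fold change 0.55, SE 0.05, edgeR adjusted p = 2.59e-10). Its relative Kif18a, which dampens the movements of aligning chromosomes, stood at 50.5, 47.0 and 44.1 CPM, against 33.3, 36.8 and 39.4 CPM in OGD/R (log2 fold change 0.37, SE 0.07, edgeR adjusted p = 5.17e-05). For Kif18a, too, the groups did not overlap. Kif2c (ENSMUSG00000028678, chromosome 4, 117016836 to 117039836), the kinesin-13 that depolymerises wrongly attached microtubules at centromeres, stood at 112, 110.3 and 122 CPM with phillyrin and 82.7, 80.0 and 84.3 CPM in OGD/R (log2 fold change 0.48, SE 0.05, edgeR adjusted p = 6.22e-10). Kif2b, a kinesin-13 abundant in testis, had no count in any library, which allows up to 0.137 CPM in the deepest library and 0.209 CPM in the shallowest (3 counts, counting error only). Kif2a, a kinesin-13 that acts in spindles and in neurons, was placed among the other kinesins. It stood at 140.2, 136 and 146 CPM with phillyrin and 131, 129 and 131 CPM in OGD/R (log2 fold change 0.11, SE 0.04, edgeR adjusted p = 0.0488). Its call was lost with 8 of the 13 other settings tried, among them each omission of an OGD/R library, with adjusted p-values up to 0.241. The log2 fold changes of the kinesin-13 genes Kif2c and Kif2a were thus 0.48 and 0.11, and their difference was not tested.

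The chromokinesins, which bind chromatin and push chromosome arms outward, were higher as well. Kif4 stood at 120.1, 116 and 128 CPM with phillyrin and 91.5, 98.4 and 97.2 CPM in OGD/R (log2 fold change 0.34, SE 0.05, edgeR adjusted p = 4.79e-07). Kif22 stood at 69.9, 74.7 and 71.4 CPM, against 57.3, 59.9 and 56.3 CPM in OGD/R (log2 fold change 0.32, SE 0.06, edgeR adjusted p = 2.04e-05). Both had groups that did not overlap. Kif4 overlaps Pdzd11 on the other strand over 832 bases, and without a stated strand setting reads there cannot be assigned.

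The kinesins of the spindle midzone and of cytokinesis included Kif20a, the mitotic member with the highest FPKM. This kinesin-6, which brings the chromosomal passenger complex to the midzone, stood at 197, 190.2 and 196 CPM with phillyrin and 148, 147 and 145 CPM in OGD/R (log2 fold change 0.40, SE 0.04, edgeR adjusted p = 1.54e-10). It overlaps Cdc23 on the other strand over 2327 bases. Kif23 (ENSMUSG00000032254, chromosome 9, 61823187 to 61854056), the motor of centralspindlin, stood at 189.5, 182 and 196 CPM with phillyrin and 149, 141 and 147 CPM in OGD/R (log2 fold change 0.38, SE 0.04, edgeR adjusted p = 2.40e-09). Kif14, a kinesin-3 that recruits citron kinase to the midbody, stood at 62.0, 56.1 and 56.4 CPM, against 47.3, 48.0 and 47.5 CPM in OGD/R (log2 fold change 0.29, SE 0.06, edgeR adjusted p = 0.000248). In each of these the lowest phillyrin library exceeded the highest OGD/R library. Kif20b, a kinesin-6 of late cytokinesis, was the mitotic kinesin that was not called. It stood at 142, 111 and 106 CPM with phillyrin and 96.5, 101 and 101 CPM in OGD/R (log2 fold change 0.26, SE 0.12, edgeR adjusted p = 0.142). All 3 phillyrin libraries lay above the OGD/R libraries, with phillyrin replicate 1 far above the others, and without that library the log2 fold change was 0.13 with an adjusted p of 0.0460.

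**Figure D3:**
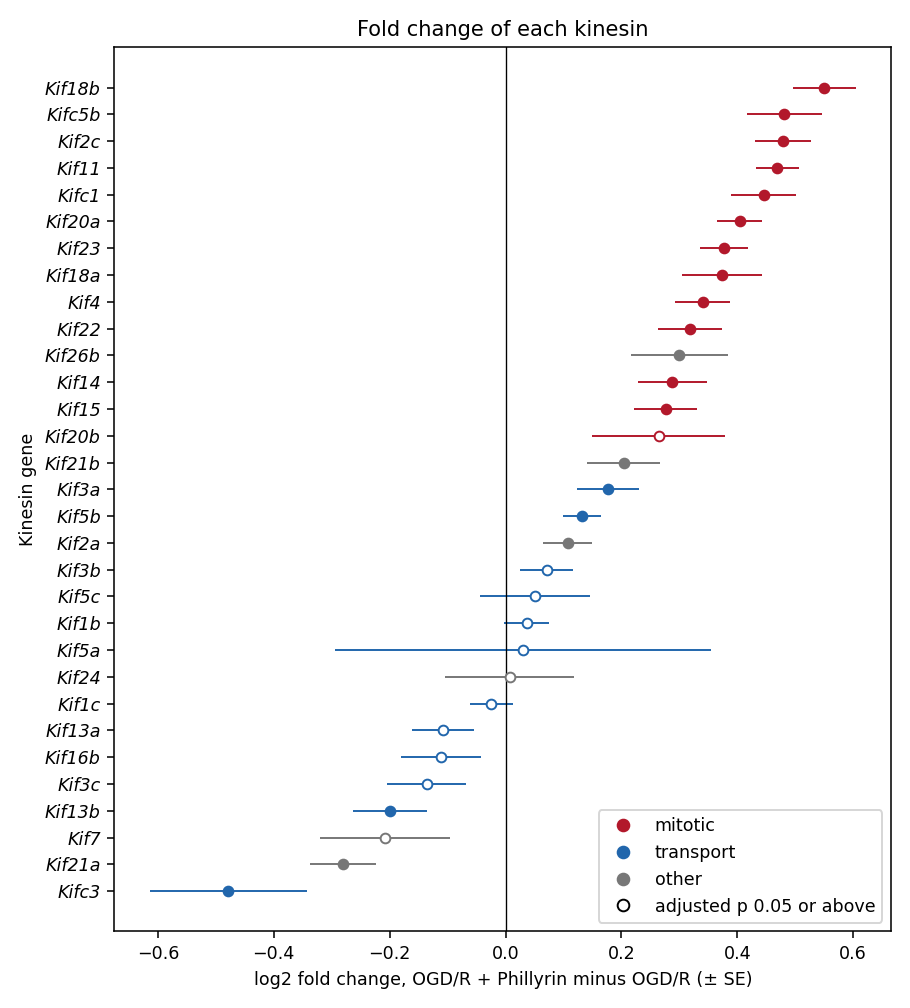
Log2 fold change (OGD/R + Phillyrin minus OGD/R, horizontal axis) with its standard error for the 31 kinesins with a mean of at least 1 CPM in each group, coloured by class, with open symbols where the adjusted p was 0.05 or above. The 10 highest values are mitotic, from 0.32 for Kif22 to 0.55 for Kif18b, and the lowest is Kifc3 at -0.48.

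Most genes whose proteins work with the mitotic kinesins rose as well. Of 20 partners 19 were called higher and 1, the spindle pole protein Numa1, lower (log2 fold change -0.13, SE 0.04, edgeR adjusted p = 0.0203, a call lost when phillyrin replicate 3 or either of OGD/R replicates 2 and 3 was omitted), and their median was 0.50, where 16.0% of all genes tested were called higher and 15.6% lower. Nusap1, a microtubule-bundling spindle protein, stood at 162 ± 8.58 CPM with phillyrin and 84.0 ± 3.84 CPM in OGD/R (SD, n = 3 each), with a log2 fold change of 0.95. Hmmr, which binds spindle microtubules and Kif15, stood at 277 ± 6.34 CPM with phillyrin and 179 ± 3.59 CPM in OGD/R. Ect2, the cytokinetic exchange factor that centralspindlin activates, stood at 254 ± 6.40 CPM with phillyrin and 166 ± 3.41 CPM in OGD/R, and the ring scaffold anillin (Anln) at 794 ± 13.2 CPM with phillyrin and 556 ± 6.38 CPM in OGD/R. These 4 had the smallest p-values of the partners. Set beside their motors, Racgap1, the other subunit of centralspindlin, had a log2 fold change of 0.44 (SE 0.03) where Kif23 had 0.38, and Cit, citron kinase, 0.24 (SE 0.06) where Kif14 had 0.29. Prc1, which crosslinks midzone microtubules and recruits Kif4, had 0.62 (SE 0.04) where Kif4 had 0.34. Cenpe, the centromeric kinesin-7 whose symbol lies outside the naming rule, had 0.28 (SE 0.05), within the range of the mitotic class.

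Of the transport kinesins of the kinesin-1 and kinesin-2 families, Kif5b and Kif3a were called higher. Kif5b, the ubiquitous kinesin-1 heavy chain that carries mitochondria, lysosomes and, in muscle, nuclei, stood at 510.4, 497 and 506 CPM with phillyrin and 459, 453 and 469 CPM in OGD/R, a rise of 9.56% (log2 fold change 0.13, SE 0.03, edgeR adjusted p = 0.00224). Its paralogs Kif5c and Kif5a, expressed mainly in neurons, had log2 fold changes of 0.05 (SE 0.10, edgeR adjusted p = 0.725) and 0.03 (SE 0.32, edgeR adjusted p = 0.953), with Kif5a at 1.40 ± 0.21 CPM with phillyrin and 1.38 ± 0.57 CPM in OGD/R. Kif3a, a subunit of the heterotrimeric kinesin-2 that drives transport in cilia, stood at 75.3, 72.6 and 80.7 CPM, against 68.3, 67.4 and 66.0 CPM in OGD/R (log2 fold change 0.18, SE 0.05, edgeR adjusted p = 0.0106). Its groups did not overlap, and the call was lost without OGD/R replicate 3 (adjusted p = 0.0557) and on library totals alone (0.0532). The alternative motor partners of Kif3a were not called, Kif3b at 0.07 (SE 0.05, edgeR adjusted p = 0.245) and Kif3c at -0.14 (SE 0.07, edgeR adjusted p = 0.125, and 0.0409 on library totals alone).

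The kinesin-3 carriers tested lay near 0 or below it, and none was called higher. Kif1c, which moves dense core vesicles and integrins, stood at 222, 227 and 227 CPM with phillyrin and 235, 224 and 229.7 CPM in OGD/R, and Kif1b, a carrier of synaptic vesicle precursors and mitochondria, at 210.3, 201 and 214 CPM with phillyrin and 204, 199.8 and 206 CPM in OGD/R. Their groups overlapped, with log2 fold changes of -0.03 (SE 0.04, edgeR adjusted p = 0.647) and 0.04 (SE 0.04, edgeR adjusted p = 0.505). Kif13b, which carries membrane cargo and signalling proteins to the cell surface, was called lower, at 36.2, 37.2 and 36.5 CPM with phillyrin and 42.4, 41.7 and 42.1 CPM in OGD/R (log2 fold change -0.20, SE 0.06, edgeR adjusted p = 0.0152). Its paralog Kif13a, a carrier of recycling endosomes, had -0.11 (SE 0.05, edgeR adjusted p = 0.128, and 0.0291 on library totals alone), and Kif16b, a carrier of early endosomes, had -0.11 (SE 0.07, edgeR adjusted p = 0.225). The largest called decrease of the family was in Kifc3 (ENSMUSG00000031788, chromosome 8, 95826456 to 95929440), a kinesin-14 of apical transport and cell junctions. It stood at 6.08, 6.40 and 5.84 CPM with phillyrin and 8.76, 8.06 and 8.84 CPM in OGD/R, and fell (log2 fold change -0.48, SE 0.14, edgeR adjusted p = 0.00610). Kifc2, known from neurons, was at 0.48 ± 0.20 CPM with phillyrin and 0.73 ± 0.33 CPM in OGD/R and was not called (log2 fold change -0.61, SE 0.48, edgeR adjusted p = 0.352).

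Among the other kinesins, 2 paralogs of the kinesin-4 family were called in opposite directions. Kif21a, which halts microtubule growth at the cell cortex, stood at 79.8, 68.3 and 67.3 CPM with phillyrin and 90.4, 88.2 and 83.1 CPM in OGD/R (log2 fold change -0.28, SE 0.06, edgeR adjusted p = 0.000201). Kif21b, which also regulates microtubule growth, stood at 62.9, 64.4 and 56.4 CPM, against 58.8, 49.7 and 51.7 CPM in OGD/R (log2 fold change 0.20, SE 0.06, edgeR adjusted p = 0.0127). Its groups overlapped, and the call was lost without phillyrin replicate 2 (adjusted p = 0.0766) or either of OGD/R replicates 2 (0.123) and 3 (0.0695), and on library totals alone (0.0620). Kif26b, an atypical kinesin-11 with a role in cell adhesion in the developing kidney, stood at 23.8, 27.3 and 24.8 CPM with phillyrin and 21.8, 20.1 and 19.9 CPM in OGD/R (log2 fold change 0.30, SE 0.08, edgeR adjusted p = 0.00496). Kif7, which organises the tip of the cilium for Hedgehog signalling, had -0.21 (SE 0.11, edgeR adjusted p = 0.158), Kif24, a centriolar kinesin that restrains cilium assembly, 0.01 (SE 0.11, edgeR adjusted p = 0.969) and Kif9, of motile cilia, 0.70 (SE 0.49, edgeR adjusted p = 0.295) at under 1 CPM. Kif24 stood at 12.8 ± 1.65 CPM with phillyrin and 12.7 ± 0.81 CPM in OGD/R, within the spread of either group.

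The 10 kinesins that were not tested had at most 6 counts in a library. Kif2b, Kif12, Kif26a and Kif28 had none. Kif1a and Kif17, motors of neurons, had 27 and 7 counts over all 6 libraries, Kif19a, Kif6 and Kif27, which belong to ciliated cells, 1, 1 and 7, and Kif19b 16.

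Kif5b had the highest FPKM of the kinesins in both groups, at 62.2 ± 0.98 FPKM with phillyrin and 58.5 ± 1.00 FPKM in OGD/R (SD, n = 3 each). Kif20a followed at 44.1 ± 0.80 FPKM with phillyrin and 34.4 ± 0.37 FPKM in OGD/R. Below it the order differed between the groups. With phillyrin, Kif11 at 37.6 ± 1.07 FPKM was above Kif1c at 30.5 ± 0.32 FPKM, whereas in OGD/R Kif11 at 28.0 ± 0.33 FPKM was below Kif1c at 32.0 ± 0.81 FPKM, each by more than the spread between libraries. Kif18b reached 28.0 ± 1.07 FPKM with phillyrin and 19.8 ± 1.64 FPKM in OGD/R, and the OGD/R value did not differ beyond the spread from Kif2c at 19.1 ± 0.49 FPKM or Kif3a at 19.0 ± 0.37 FPKM. Kif2a, at 21.7 ± 0.63 FPKM with phillyrin and 20.7 ± 0.15 FPKM in OGD/R, had the highest FPKM of the other kinesins. Kif21a followed at 10.9 ± 1.12 FPKM with phillyrin and 13.7 ± 0.61 FPKM in OGD/R. These FPKM values rest on library totals without TMM scaling.

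**Figure D4:**
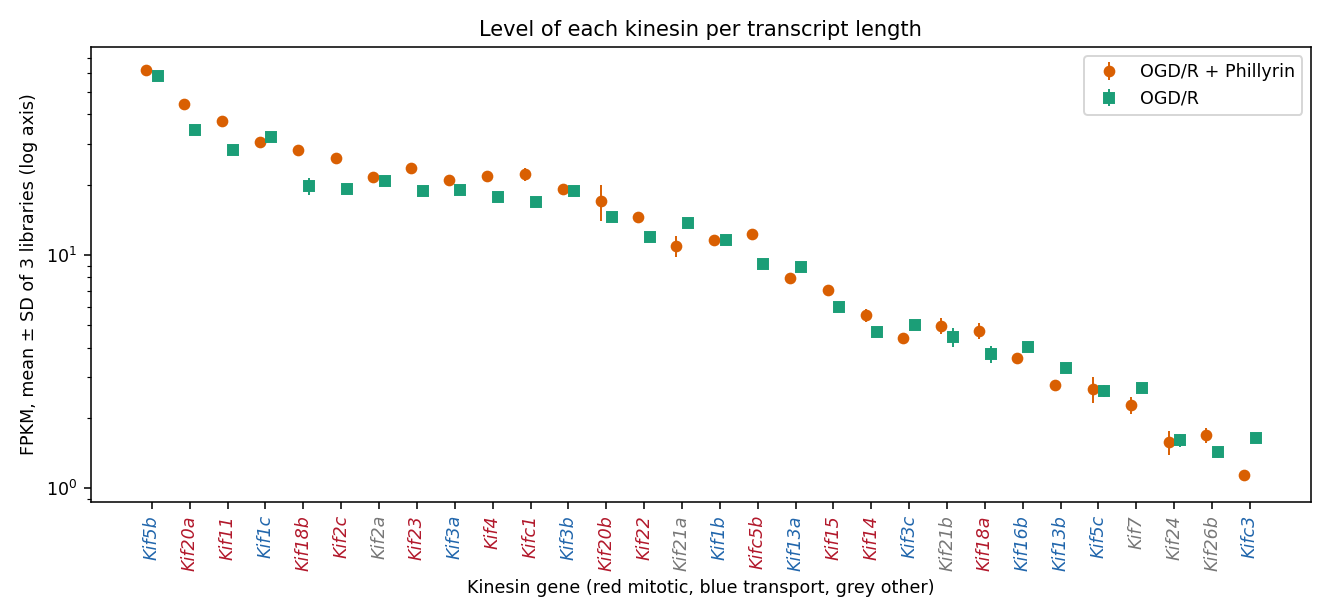
Level of each kinesin with a mean of at least 1 FPKM, as mean ± SD of 3 libraries on a logarithmic axis, ordered by the mean of all 6 libraries, with phillyrin as circles at left and OGD/R as squares at right of each gene. Kif5b is highest in both groups, and every mitotic kinesin has its circle above its square. Lengths are the deposited gene lengths, which the title of the figure calls transcript length.

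Genes around the transport kinesins went both ways. Of 21 cargo adaptors and light chains tested, 7 were called higher and 5 lower (33.3% and 23.8%), with a median of 0.02, and 3 were called lower without phillyrin replicate 2 or OGD/R replicate 1. Both shares were above the background of 16.0% and 15.6%. The scaffold Spag9, which links kinesin-1 and dynein to cargo, stood at 433 ± 9.29 CPM with phillyrin and 357 ± 7.46 CPM in OGD/R, and Mapk8ip3, a scaffold of the same family, at 78.6 ± 7.12 CPM with phillyrin and 104 ± 1.98 CPM in OGD/R (SD, n = 3 each), log2 fold changes of 0.28 and -0.40. Ywhab, a 14-3-3 protein, and Dennd4c, a Rab exchange factor, had 0.20 (SE 0.03) and 0.25 (SE 0.05). The light chain Klc1 had -0.15 (SE 0.04) where its heavy chain Kif5b had 0.13, and Kifap3, the third subunit of heterotrimeric kinesin-2, had 0.17 (SE 0.05) where Kif3a had 0.18. Of 22 subunits and regulators of dynein and dynactin, the opposing motor, 9 were called higher and 1 lower (40.9% and 4.55%), with 3 higher on library totals alone and 4, 4 and 5 without OGD/R replicate 1, 2 or 3. The dynein heavy chain Dync1h1 was the member called lower, at 490.2 ± 10.5 CPM with phillyrin and 608 ± 15.9 CPM in OGD/R, and Nde1, a dynein regulator that also acts in mitosis, had 0.30 (SE 0.05). Dync1i2 had 0.19 and Dynlt3 0.15. Of 10 alpha and beta tubulins tested, 6 were called higher and 1 lower (60.0% and 10.0%). Tubb5 stood at 1236 ± 22.2 CPM with phillyrin and 979 ± 25.2 CPM in OGD/R, Tubb2b at 209.8 ± 2.30 CPM with phillyrin and 167 ± 11.1 CPM in OGD/R, and Tuba1c and Tubb4b had log2 fold changes of 0.23 and 0.20. Tuba4a was the tubulin called lower (-0.16), a call lost without phillyrin replicate 1 or OGD/R replicate 1.

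The promoters of the kinesins were also read for motifs of late cell cycle genes. Such motifs are present whatever the treatment, and a mitotic class can carry them for its role alone. Their link to phillyrin was not tested. The CHR (cell cycle genes homology region) is an element that the MuvB-based complexes bind in many genes of G2 and mitosis, often next to CCAAT boxes bound by NF-Y. It was searched as TTTGAA or TTCGAA, and the box as CCAAT, on both strands, in the RefSeq windows of build GRCm38.p6 that run from 250 bases before to 50 bases after the annotated start, and the motifs can share at most 1 base. Windows were found for 33 of the 43 kinesins, and Kif13b, Kif19a, Kif19b, Kif20a, Kif21b, Kif28, Kif5a, Kif5b, Kifc2 and Kifc3 had none. The stretches below, 120 bases up to the base before the start, are those of the mitotic kinesins with a CHR match in the last 20 bases before the start, followed for contrast by the transport kinesins Kif1c and Kif3b, which were not called. The mitotic stretches were picked for their match, and neither Kif1a, a transport kinesin with one, nor Kif18a, a mitotic kinesin without, is shown. They therefore do not stand for their classes. Capitals mark the motif matches.
Kif11 (chr19:37376262-37376381, plus strand): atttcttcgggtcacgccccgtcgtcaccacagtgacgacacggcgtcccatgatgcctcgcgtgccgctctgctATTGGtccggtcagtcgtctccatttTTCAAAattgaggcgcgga
Kif15 (chr9:122950961-122951080, plus strand): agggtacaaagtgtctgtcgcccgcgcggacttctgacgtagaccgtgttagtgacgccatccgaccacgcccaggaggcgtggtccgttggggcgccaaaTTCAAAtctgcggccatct
Kif22 (chr7:127042421-127042540, minus strand): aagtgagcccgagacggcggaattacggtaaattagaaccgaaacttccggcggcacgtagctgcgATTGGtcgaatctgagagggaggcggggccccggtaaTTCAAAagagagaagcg
Kif1c (chr11:70700428-70700547, plus strand): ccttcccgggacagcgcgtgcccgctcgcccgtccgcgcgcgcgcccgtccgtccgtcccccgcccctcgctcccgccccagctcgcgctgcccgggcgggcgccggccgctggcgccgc
Kif3b (chr2:153291296-153291415, plus strand): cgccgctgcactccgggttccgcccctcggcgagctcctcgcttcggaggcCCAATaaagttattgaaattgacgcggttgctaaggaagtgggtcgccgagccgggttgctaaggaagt

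In Kif11 and Kif15 the CHR match lay at positions -19 to -14 from the start and in Kif22 at -17 to -12, on the reverse strand in all 3, and Kif11 and Kif22 had a CCAAT box further upstream, at -45 to -41 and -54 to -50. A CHR match was present in the windows of 11 of the 13 mitotic kinesins with an entry, against 1 of 10 transport kinesins and 3 of 10 others. The transport kinesin was Kif1a, whose other window, at 93101825 to 93102124, held no match. Its matching window, at 93082431 to 93082730 on the minus strand, lies downstream of that one, inside the gene. The stretches before the Kif14 and Kif27 starts end in letters like those before an inner exon. Kif14, with its CHR match at -228 to -223, is nevertheless counted among the 11. Whether each window lies at the 5' end of its gene was not tested. Over all 32851 windows the share was 19.2%, and 1663 of the 11868 windows of genes tested here held a match. Within 50 bases of the start, a range chosen after the positions were seen, 9 of the 13 mitotic kinesins had a match, against 5.31% of all windows. Both motifs were present in 8 of the 13 mitotic kinesins, Kif14 among them, and 0 of the transport kinesins, against 7.52% of all windows. They were also present in 3 of the 12 windows of the other kinesins (25.0%). A CCAAT box alone set the classes less far apart, with 9 of 13 mitotic kinesins (69.2%) and 37.4% of all windows. It was present in 4 of the 12 transport windows and 4 of the 12 windows of the other kinesins (33.3% each). Of the 20 windows of 17 mitotic partner genes 12 held a CHR match. Kif18a and Kif2b were the mitotic kinesins whose window held no match, and Kif18a was called higher while Kif2b had no count. Kif20b, which was not called, held a match. Of the other kinesins, Kif26b, called higher, held a CHR match at -9 to -4, and Kif24, at a log2 fold change of 0.01, held one at -26 to -21. A match is a description of these letters and does not show that a factor binds there.

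**Figure D5:**
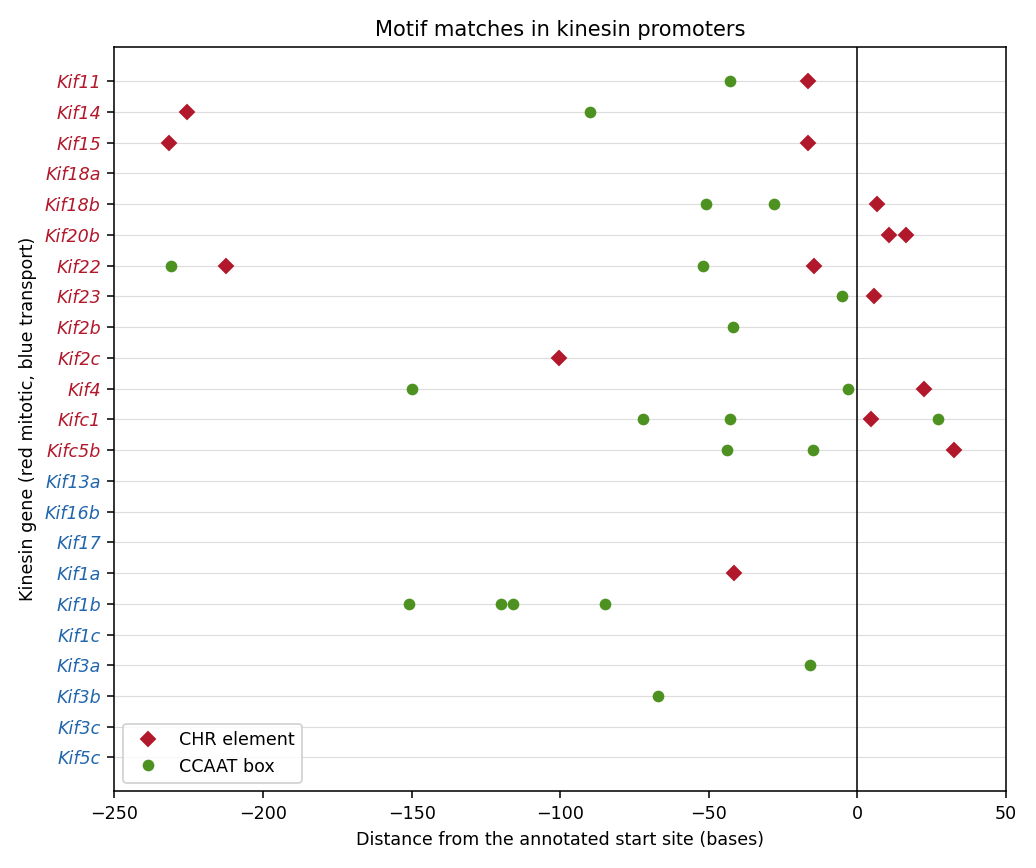
Positions of CHR (diamonds) and CCAAT box (circles) matches relative to the annotated start site (horizontal axis, bases) in the RefSeq promoter windows of the 13 mitotic and 10 transport kinesins with an entry. Diamonds appear in 11 mitotic rows and in 1 transport row, Kif1a, where the matching window lies inside the gene.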

How the data were processed

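For every gene the authors deposited raw read counts and FPKM, 1 column of each per library. The submitters' processing notes name featureCounts 2.0.3, HISAT2 2.2.1, Trimmomatic 0.39, DESeq2 1.34.0 and the build GRCm39. What each did, the strand setting and the annotation release were not given in the sources used here. The deposited FPKM equalled count over gene length and library total (relative difference at most 2.43e-07). Gene coordinates were copied from the deposited table and taken to be GRCm39, and promoter windows are RefSeq's on GRCm38.p6. Columns were assigned by sample title, since the descriptions name the same column for all 3 phillyrin libraries. Rows without a symbol took at most 0.00743% of a library and stayed in.

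Counts were filtered with filterByExpr, scaled by TMM and tested with edgeR's robust quasi-likelihood test (edgeR 4.0.16, R 4.3.3), two-sided, with Benjamini-Hochberg adjustment over 11658 genes and no covariate. Log2 fold changes are OGD/R + Phillyrin minus OGD/R. Alternatives were DESeq2 1.42.0, limma-voom (limma 3.58.1), RLE factors, library totals without factors, no filter, a minimum mean of 1 CPM, the replicate number as a block, and omission of each library. Every tested kinesin is named, with up to 4 members of smallest p of each other list; further partners were picked with their values in view. The members and lists were chosen with earlier results of these data known. In data simulated for this comparison, 200 of 11658 genes were changed. Recovery was 59.7% at 1.25-fold, 73.1% at 1.5-fold and 93.9% at 2-fold, with 9 false among 160 calls. The real comparison called 31.7% of genes, so these shares are not its own recovery. Libraries of a group differed by more than sampling noise (chi-square over its degrees of freedom 2.04 to 5.31), so none was counted as a duplicate. Transcripts of GENCODE M21 were compared for shared stretches of 100 bases.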

Additional observations from a re-analysis of the deposited data

How the results depend on the processing

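Of the 33 kinesins tested, 23 kept their direction and their side of the threshold under all alternatives that gave a value. Among them were the 12 mitotic kinesins called higher. Kif9 and Kifc2 had no adjusted p with DESeq2 and were not tested with a minimum mean of 1 CPM. Kif9 also had no value without phillyrin replicate 2. Mitotic kinesins called higher numbered 12 or 13 under the 13 alternatives, and those called lower 0. Scaled by library size only, which moved the median of all genes by -0.04, 1 transport kinesin was higher and 4 lower, and the class medians were 0.33 (mitotic) and -0.069 (transport). With each library left out in turn, 1 to 2 transport kinesins were higher and 2 lower, and the medians ran from 0.38 to 0.41 (mitotic) and from -0.082 to -0.0068 (transport). Some kinesins near 0 changed sign. Scaled by library size only these were Kif1b (-0.0073), Kif24 (-0.037) and Kif5a (-0.012), and with limma-voom Kif24 (-0.011). Over all 13 alternatives, omissions of a library among them, Kif24 ran from -0.073 to 0.12, Kif5a from -0.24 to 0.37 and Kif5c from -0.046 to 0.15. The cause was not tested. Kif20b was called with limma-voom (adjusted p = 0.00378), without a filter (edgeR adjusted p = 0.000603), with the replicate block (edgeR adjusted p = 0.0174) and without phillyrin replicate 3 (0.0275). Same-numbered libraries did not deviate together (correlations 0.00278 to 0.00561, although each library correlated best with its own number), so the numbers were not taken to pair the samples. Under the replicate block 1867 genes were higher and 1842 lower, 13 mitotic kinesins were higher, 2 transport kinesins were higher and 2 lower, and the medians were 0.38 (mitotic) and -0.025 (transport). Without a filter 1963 genes were called higher and 1768 lower. At this depth a kinesin with no count cannot be told from one under 0.137 to 0.209 CPM.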
